A study of Mus musculus with 39 samples.

Results

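Kidneys from old mice given a vehicle solution were compared with kidneys from young mice, gene by gene, and the genes of the circadian clock were set apart from the other genes that changed. The comparison used 7 of the 39 RNA libraries of the study. Young mice were 3 months old and untreated (replicates 1 to 4), and vehicle-treated mice were 20 months old (replicates 3 to 5). Vehicle-treated mice had been injected with the solvent for 2 months, on 2 days per month, starting at 18 months of age, so age and injection cannot be told apart here. Every mouse behind these 39 libraries, controls included, was of the C57BL/6 strain and carried the Prf1-/- genotype, which removes perforin, the pore-forming protein that cytotoxic lymphocytes use to kill target cells. Another 3 kidneys came from mice of 20 months given the BCL-2 family inhibitor ABT-737 at 25 mg/kg on the same schedule (replicates 3 to 5). The treatment field of ABT-737 replicates 4 and 5 reads ABT-738 and ABT-739, while their titles give ABT-737, which was used here. These 3 libraries entered the fit for the spread between mice and served as a further set of old kidneys. The mice were male. Xist, which is transcribed from the inactive X chromosome of females, had 0 counts in all 7 young and vehicle-treated libraries, and Kdm5d, a Y-linked gene, was counted in all 7.

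RNA was read at the 3′ ends of transcripts by a bulk form of MARS-seq, after the mice had been perfused. Total counts ranged from 2218423 to 3513311 in the 4 young libraries (median 2819393) and from 1431814 to 2584882 in the 3 vehicle-treated libraries (median 2127425), with vehicle replicate 4 the shallowest. Levels are given as CPM, the counts scaled by the TMM-normalized library size, which compare a gene between libraries but not different genes with each other. The libraries carried kidney transcripts. All 10 genes of a list of kidney identity passed the expression filter. Umod, the uromodulin gene of the thick ascending limb, was at 3562 ± 235 CPM (SD, n = 4) in young and 4009 ± 739 CPM (SD, n = 3) in vehicle-treated mice, and Slc34a1, the phosphate transporter of the proximal tubule, at 6022 ± 474 and 5102 ± 157 CPM. Neither passed the test of a difference between the groups. Prf1 itself had 3, 11, 9 and 1 counts in the young libraries and 4, 3 and 4 in the vehicle-treated ones, too few to be tested. In a bulk sample of this kind, fewer cells of a type and less RNA per cell cannot be told apart.

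The circadian clock of mammalian cells is a loop of transcription. A pair of activators, BMAL1 (Arntl) with CLOCK or NPAS2, binds E-boxes and turns on the genes of its own repressors (the Per and Cry genes), of REV-ERB (Nr1d1, Nr1d2) and of the factors DBP, TEF and HLF, which act through D-boxes. REV-ERB in turn represses genes with ROR elements (ROREs), among them Arntl, Npas2, Cry1 and Nfil3, so that genes of the E-box arm and genes of the RORE arm peak at opposite times of day. The kidney has a strong clock, and transporters of its tubules are among the genes that follow it. The time of day at which the mice were killed is not given in the sources used here.

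Short promoter stretches of 5 of the clock genes described below show the letters that these arms are named for. They were read from RefSeq promoter windows of build GRCm38.p6, which run from 250 bases before to 50 bases after a transcription start, and all end before that start. Capitals mark the E-box CACGTG in Ciart, Tef and Cry1, the D-box TTATGTAA in Per3 and the RORE core TAGGTCA, here on the other strand as TGACCTA, in Nfil3. Each is printed 5′ to 3′ on the strand of its gene.
Ciart promoter, chr3:95882257-95882354, minus strand: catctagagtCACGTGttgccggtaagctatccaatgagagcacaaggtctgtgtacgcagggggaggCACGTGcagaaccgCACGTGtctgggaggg
Tef promoter, chr15:81802536-81802561, plus strand: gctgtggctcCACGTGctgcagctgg
Cry1 promoter, chr10:85185099-85185124, minus strand: tgccggtggtCACGTGgggtgcatgc
Per3 promoter, chr4:151044806-151044880, minus strand: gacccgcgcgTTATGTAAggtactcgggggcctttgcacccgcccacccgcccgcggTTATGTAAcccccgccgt
Nfil3 promoter, chr13:52981040-52981061, minus strand: cgctcggaacTGACCTActaac

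Of the 25 clock genes listed, 20 had a window in the promoter table. Those without were Per2, Bhlhe40, Wee1, Csnk1d and Btrc. On both strands, CACGTG was found in 7.15% of all 32851 windows, TTATGTAA in 0.938%, TAGGTCA in 2.61% and TGGGTCA, another form of the RORE core, in 3.98%. None of these motifs contains another. Among the 11 genes of the E-box and D-box list with a window, 5 held the E-box (Bhlhe41, Ciart, Per1, Tef and Tspan4) and 1 the D-box (Per3). Some genes have more than 1 window and were counted if any of them held the letters, so that by window the E-box stood in 6 of 14 of this list. Ciart held 3 E-boxes, and 0.0883% of all windows held 3 or more. Of the 5 genes of the RORE list, Arntl and Nfil3 held TAGGTCA and Cry1 held an E-box. Among the other clock components Timeless held a D-box, and TGGGTCA was found in no window of a listed clock gene. A match of letters is a description of the window only.

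Between young and vehicle-treated kidney, 1474 of 11123 genes tested (13.3%) were called at an adjusted p-value under 0.05 by edgeR's quasi-likelihood test. Of these, 862 were higher (7.75% of genes tested) and 612 lower (5.50%) in vehicle-treated mice. The median log2 fold change over all genes tested was 0.0063. The median log2 fold change was 1.19 over the genes called higher and -0.81 over those called lower. Changes of more than 2-fold were seen in 522 of the genes called higher and 186 of those called lower. In 27.8% of all genes tested, the 4 young and 3 vehicle-treated values did not overlap. At an unadjusted p under 0.05, calls included, there were 3120 genes. The number of genes called higher lay between 587 and 1033 when any of the 10 kidney libraries was left out (587 without vehicle replicate 4). The number called lower was 255 genes without vehicle replicate 4, 256 without vehicle replicate 5, 331 without young replicate 4 and 378 without young replicate 3.

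The E-box and D-box arm of the clock was lower in vehicle-treated kidney. Of its 14 listed genes, 13 were tested and 8 were called, all lower, where 5.50% of all genes were called lower. Its median log2 fold change was -0.63. Dbp, which encodes the D-box activator DBP, had the smallest p-value of all genes that fell. Its level was 341, 363, 371 and 419 CPM in the young and 30.2, 18.5 and 23 CPM in the vehicle-treated kidneys. Every vehicle-treated kidney was far below every young one, a fall of 15.6-fold (log2 fold change -3.93 ± 0.18 SE, edgeR adjusted p = 2.17e-09). Dbp (NM_016974) is encoded on chromosome 7 of mm10, plus strand, from 45705247 to 45710203 and overlaps Sphk2 on the other strand. Nr1d1, the gene of the repressor REV-ERBα, was at 127, 119.6, 152 and 102 CPM in young and 12.2, 18.5 and 11.3 CPM in vehicle-treated mice. The groups were again well apart, by 8.96-fold (edgeR adjusted p = 5.37e-07). Nr1d1 (NM_145434) lies on the minus strand of chromosome 11 from 98767932 to 98775377, and its end overlaps Thra on the other strand. Ciart, also called Chrono, a repressor of BMAL1, had 5.15, 9.92, 12.9 and 10.2 CPM in young mice. In the vehicle-treated mice it had 2, 1 and 0 counts, so that the fall is at least 6.16-fold, taken against 3 counts per library (edgeR adjusted p = 1.58e-04). Its locus on chromosome 3, 95878505 to 95882228 on the minus strand, overlaps C920021L13Rik on the other strand.

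The other falls of this arm were smaller. Nr1d2, which encodes REV-ERBβ, went from 7.29, 5.79, 10.2 and 7.85 CPM to 3.53, 0.684 and 0.939 CPM, a fall of 4.53-fold with no overlap. Per3, a member of the period family, went from 8.15, 11, 12 and 5.54 to 3.53, 2.05 and 4.23 CPM, with the lowest young value close above the highest vehicle value. Tef, a partner of DBP at D-boxes, went from 289 ± 35.2 (SD, n = 4) to 186 ± 36.3 CPM (SD, n = 3), with no overlap. Usp2, a clock-driven ubiquitin protease, went from 582 ± 31.6 to 406 ± 77 CPM. Wee1, a kinase that holds back mitosis, went from 13.7 ± 2.26 to 7.22 ± 2.52 CPM and only just passed (edgeR adjusted p = 0.0491). Both Usp2 and Wee1 were lower in every vehicle-treated mouse than in any young one. The remaining genes did not pass. Hlf, the third D-box activator, was at 143, 156, 177 and 138 CPM in young and 131, 89.6 and 120.2 CPM in vehicle-treated mice (edgeR adjusted p = 0.0762). Per1 was at 35.2, 34.5, 58.8 and 37.8 CPM in young and 30.6, 58.1 and 23.9 CPM in vehicle-treated mice, and Per2 at 13.3, 10.2, 19.3 and 15.2 CPM (young) and 14.5, 9.58 and 11.7 CPM (vehicle), with overlap in both genes. Bhlhe40, a repressor of the E-box arm, and Tspan4 had log2 fold changes of -0.32 and -0.036 without a call. Bhlhe41 had too few counts to be tested. Without vehicle replicate 4 or without vehicle replicate 5, 4 genes of the list were called in place of 8. Each left out on its own, single libraries took away the call of Nr1d2 (without vehicle 5), Per3 (without vehicle 4, vehicle 5, young 2 or young 3), Tef (without vehicle 4), Usp2 (without vehicle 4, vehicle 5 or young 4) and Wee1 (without vehicle 4, vehicle 5, young 2, young 3, young 4 or ABT-737 5), at edgeR adjusted p-values of 0.0512 to 0.172. The fold change itself moved by over 1.5 times, given here as log2 values, for Ciart (-4.17, -4.88 without vehicle 3) and Nr1d2 (-1.99, -3.15 without vehicle 3).

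The RORE arm was higher. All 5 listed genes were tested and 4 were called, all higher, where 7.75% of all genes were called higher, and the median log2 fold change was 2.26. Arntl, the gene of BMAL1, had 2.57, 3.03, 2.05 and 0.923 CPM in young and 17.3, 18.5 and 14.1 CPM in vehicle-treated mice. The groups were widely separated, by 7.75-fold (log2 fold change 2.86 ± 0.34 SE, edgeR adjusted p = 4.19e-05). Arntl (NM_007489) is encoded on chromosome 7, plus strand, from 113207465 to 113314126. Cry1, a repressor that is also under RORE control, had 5.15, 2.2, 5.85 and 2.77 CPM in young and 20.8, 21.9 and 15.5 CPM in vehicle-treated mice. Nfil3, which represses D-boxes against DBP, had 4.29, 6.06, 2.05 and 6.0 CPM in young and 19.6, 20.5 and 17.8 CPM in vehicle-treated mice. In both genes every vehicle value was more than 2 times every young value. Npas2, which can stand in for CLOCK, had 2.57, 0, 0.293 and 0.923 CPM in young and 3.14, 8.89 and 7.04 CPM in vehicle-treated mice, a wider spread on few counts. Clock, the gene of the CLOCK protein, was at 10.2 to 13.8 CPM in young and 14.4 to 16.1 CPM in vehicle-treated mice and did not pass (edgeR adjusted p = 0.518). The 4 calls were made again with any of the 10 libraries left out, although the log2 fold change moved for Npas2 (2.84, 3.99 without young 1).

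Of 6 other clock components, 0 were called by edgeR and 0 by DESeq2, with 4 at an unadjusted p under 0.05. Cry2, a paralogue of Cry1, had a log2 fold change of 0.58 and Rora, which encodes RORα, of 0.51, neither of them called (edgeR adjusted p = 0.0709 and 0.0672). The kinase genes Csnk1d and Csnk1e, which mark PER proteins for decay, had log2 fold changes of 0.41 and 0.43. That of Btrc, a ubiquitin ligase subunit that acts on PER, was -0.03, and that of Timeless was 0.86, none of them called. With 1 library left out, 1 gene of this list was called, namely Csnk1d without vehicle 3, Rora without vehicle 4 and Cry2 without young 3.

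**Figure D1:**
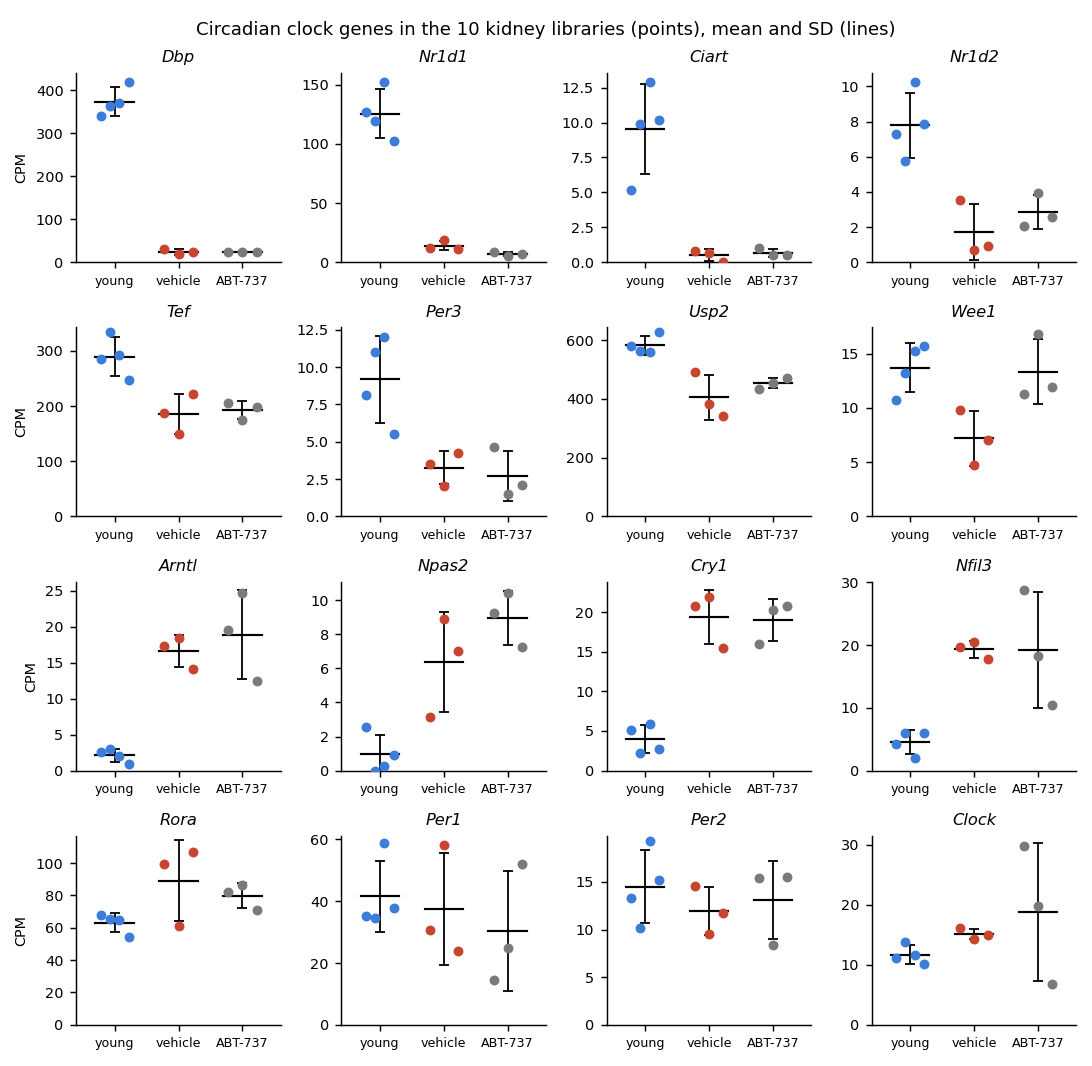
Level in CPM (y axis, from 0) of 16 clock genes in each of the 10 kidney libraries (points, blue for young, red for vehicle, grey for ABT-737), with the mean and SD as lines that end at 0 where they would go below it. Dbp, Nr1d1 and Ciart sit near 0 in all 6 old kidneys, Arntl, Cry1 and Nfil3 are higher in all 6 than in the 4 young ones, and Per1 and Per2 overlap.

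The same genes were also measured in the ABT-737-treated kidneys, which share their age with the vehicle-treated ones. Dbp was at 24.1, 24.7 and 22.8 CPM, Nr1d1 at 8.73, 4.95 and 7.27 CPM and Arntl at 19.5, 24.7 and 12.5 CPM. Between ABT-737 and vehicle, 150 of all 11123 genes were called (1.35%) and 0 of the 24 clock genes tested, with 3 of them at an unadjusted p under 0.05. The log2 difference, ABT-737 minus vehicle, was -0.027 for Dbp, -0.022 for Cry1 and -0.0082 for Nfil3. That of Nr1d1 was -0.96 (edgeR adjusted p = 0.132), with all 3 ABT-737 values below all 3 vehicle values. The 150 calls varied with the libraries used, with 57 without ABT-737 replicate 4, 92 without vehicle replicate 4, 471 without vehicle replicate 3, as well as 94 without ABT-737 replicate 3. Both contrasts use the 3 vehicle libraries.

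A clock difference was computed for each library as the mean log2(CPM + 1) of the E-box and D-box list minus that of the RORE list. For this measure, CPM was scaled by the TMM-normalized library size in kidney and by the total count in liver, lung and skin. In kidney it was 2.85, 3.35, 3.77 and 3.5 in young replicates 1 to 4, and 0.68, 0.15 and 0.45 in vehicle replicates 3 to 5. The ABT-737 replicates were at 0.15, -0.034 and 1.0. The young and the old kidneys did not overlap. The other tissues of the study showed the same order. In liver the young libraries ranged from 2.46 to 3.76 and the vehicle-treated libraries from -0.91 to 0.56. In lung these ranges were 3.07 to 3.51 and 0.082 to 0.35. In skin they were 2.75 to 3.35 and -0.062 to 0.51. Skin was counted in another table, so its levels are set beside those of the kidney only as differences within a library. The members of the difference were chosen with clock genes known to move, so it carries no test.

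**Figure D2:**
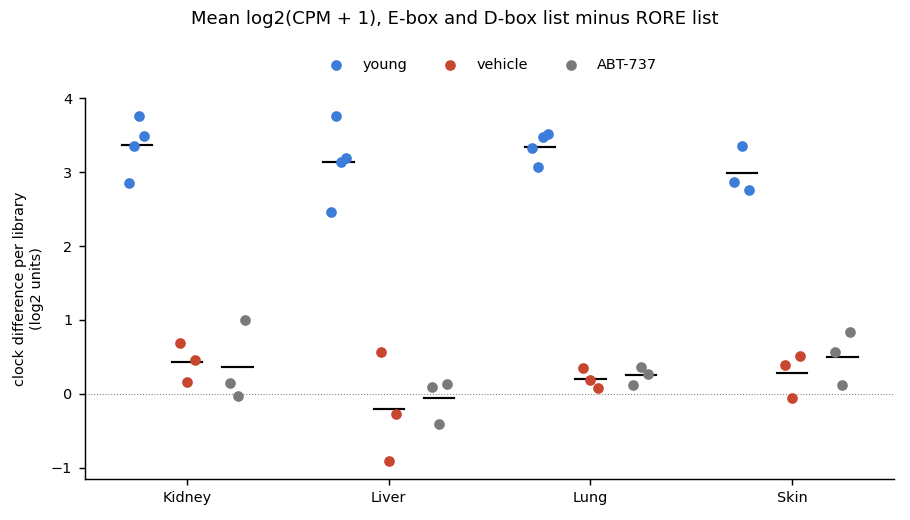
Clock difference (mean log2(CPM + 1) of the E-box and D-box list minus that of the RORE list, y axis in log2 units) for each library of kidney, liver, lung and skin (points, blue for young, red for vehicle, grey for ABT-737, black lines for means). CPM was scaled by the TMM-normalized library size in kidney and by the total count in the other tissues. In each tissue the young libraries lie above the old ones, in kidney between 2.85 and 3.77 against -0.034 and 1.0.

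Gene by gene, the clock changes of the kidney were compared with those of liver and lung by a test of the difference between tissues, in a fit over the 30 libraries of the 3 tissues. The labels do not say which organs came from the same mouse. Dbp fell in all 4 tissues, with log2 fold changes of -3.93 (kidney), -5.0 (liver), -5.01 (lung) and -4.42 (skin). Its fall was smaller in kidney than in lung (difference 1.06 ± 0.33 SE, edgeR adjusted p = 0.043). The fall of Nr1d1 was also smaller than in lung (-3.20 against -5.86, edgeR adjusted p = 0.0128), and so was the change of Hlf (-0.43 against -2.56, edgeR adjusted p = 2.30e-04). Cry1 rose more in kidney than in lung (2.26 against 0.25, edgeR adjusted p = 0.0129). Cry2 and Tspan4 were not called in kidney and were lower in lung, where their log2 fold changes were -1.0 and -1.58, and the difference passed for both (edgeR adjusted p = 0.00714 and 0.00714). No clock gene passed against liver, whose 7 young and vehicle-treated libraries held 223957 to 891116 counts. Over all genes, 0.786% of the 13107 tested differed in their change between kidney and liver, and 8.04% between kidney and lung. The number of genes that differed from lung, 1054, went from 321 without lung vehicle replicate 5 to 1933 without lung vehicle replicate 4, and was 419 and 507 without kidney vehicle replicates 4 and 5, 702, 666 and 617 without kidney young replicates 2, 3 and 4, and 683 without lung young replicate 2. That from liver, 103, was 54 without liver vehicle replicate 4 and 67 without liver young replicate 3.

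Other genes that follow the time of day or handling moved unevenly. Of 13 tested glucocorticoid-responsive genes, 4 were called higher and 1 lower, where 7.75% and 5.50% of all genes were, and the median log2 fold change was 0.56 (0.11 without vehicle replicate 4). Cdkn1a, a cell cycle inhibitor, was at 33.9, 29.5, 26.3 and 26.3 CPM in young and 86.8, 187 and 89.2 CPM in vehicle-treated mice. Pdk4, which spares glucose, was at 8.15, 6.06, 8.49 and 5.08 CPM in young and 17.7, 83.5 and 18.8 CPM in vehicle-treated mice. Sgk1, a kinase that raises sodium uptake, was at 70.3 ± 12.3 CPM (SD, n = 4) in young and 151 ± 56.1 CPM (SD, n = 3) in vehicle-treated mice, and Lcn2, a tubule injury marker as well, at 4.37 ± 2.58 and 27.5 ± 11.9 CPM. Vehicle replicate 4 was the highest in all 4 of these genes, and without it 2 genes of the list were called higher. Without it, Pdk4 and Sgk1 were not called (edgeR adjusted p = 0.114 to 0.136), and the log2 fold change moved for Pdk4 (2.42, 1.37 without vehicle 4). Errfi1, a brake on the EGF receptor, was lower at 125 ± 16.2 against 213 ± 21.6 CPM. Fkbp5, the standard marker of glucocorticoid action, was at 90.1, 88.5, 87.2 and 79.9 CPM in young and 77.4, 159 and 99.1 CPM in vehicle-treated mice and did not pass (edgeR adjusted p = 0.253).

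Heat shock genes, 10 of them tested, had 3 calls, all lower, where 5.50% of all genes were called lower. Hspa1a, an inducible HSP70 gene, went from 97.8, 44.4, 68.8 and 74.3 CPM in young to 26.3, 24.6 and 22.1 CPM in vehicle-treated mice. Hspa1b, which is nearly identical in sequence, so that reads could have been split between them, went from 59.7 ± 8.11 to 23.2 ± 3.29 CPM. Dnaja1, an HSP40 co-chaperone, went from 171, 191, 205 and 182 to 134, 35.6 and 55.9 CPM, with vehicle replicate 3 nearest the young range. It was not called without vehicle replicate 5 (edgeR adjusted p = 0.0644). The log2 fold change also moved for Dnaja1 (-1.28, -2.02 without vehicle 3). Without vehicle replicate 3 or without ABT-737 replicate 4, 5 genes of the list were called. The constitutive Hspa8 was at 2524 ± 257 and 2269 ± 223 CPM and was not called. The cold-inducible genes Cirbp and Rbm3 were not called, with log2 fold changes of -0.33 and 0.26. Of 14 immediate early genes tested, Klf6 (42.5 ± 6.98 to 76.5 ± 3.76 CPM) and Nr4a1 (8.91 ± 3.6 to 23.8 ± 11 CPM) were higher and 12 did not pass, where 7.75% of all genes were called higher. Nr4a1 was not called without vehicle replicate 4 or young replicate 3 (edgeR adjusted p = 0.0576 to 0.11), and 4 genes of the list were called without ABT-737 replicate 4.

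The 12 clock genes called made up a small part of the calls. Without the 25 listed clock genes, 1462 called genes remained, 858 higher and 604 lower. Genes outside the list can also follow the time of day, and which of the 1462 do so was not tested. The plot of the gene lists shows the members of the clock lists above those of the immune, nephron and metabolic lists described next.

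**Figure D3:**
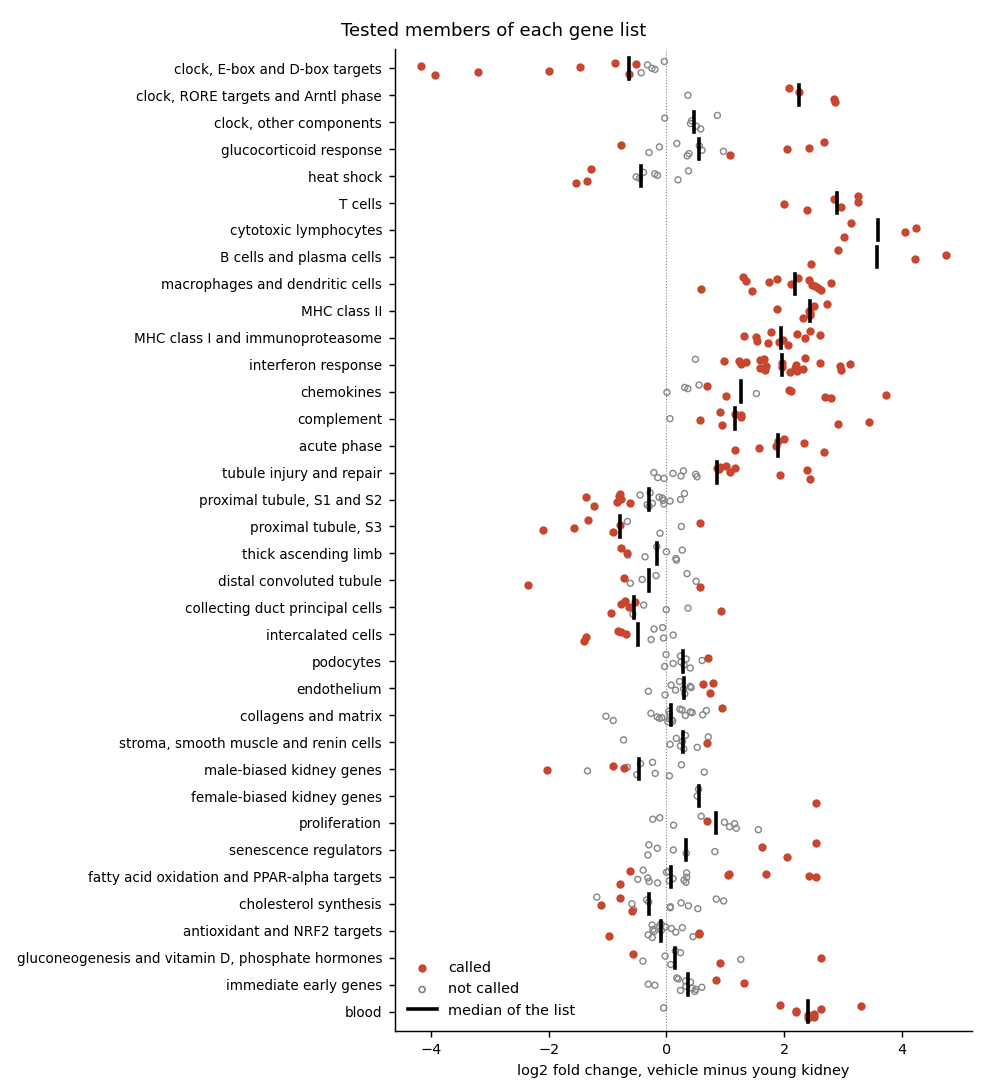
Log2 fold change, vehicle minus young kidney (x axis), of each tested member of 36 gene lists (rows), with red points for called genes, open grey points for genes not called and black bars for the median of the list. The immune and blood lists lie almost wholly to the right of 0, the clock lists split to both sides, and most nephron segment lists straddle 0 with medians below it.

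Antigen presentation genes rose together. Of the MHC class II list, all 7 tested genes of 9 listed were called higher, against 7.75% of all genes, with a median log2 fold change of 2.44. H2-Ab1, the beta chain of the I-A molecule that presents peptides to helper T cells, was at 706, 763, 643 and 867 CPM in young and 5987, 3172 and 2930.2 CPM in vehicle-treated mice. Each vehicle-treated kidney had over 3 times the highest young value, and replicate 3 was the highest (5.41-fold by group means, edgeR adjusted p = 5.33e-06). Cd74, the invariant chain, was at 267, 433, 301 and 339 CPM (young) and 2514, 1576 and 1622 CPM (vehicle). H2-Eb1 and H2-DMa, which encode another class II chain and the peptide loader, rose 5.41- and 5.37-fold. All 12 tested genes of class I and the immunoproteasome were called higher too, with a median of 1.94. The class I heavy chains H2-K1 and H2-D1 rose 4.2- and 3.32-fold, and their light chain B2m went from 264, 363, 310.0 and 389 to 1844, 1062 and 1005 CPM. Tap1, the peptide pump, was at 25.3, 24.8, 24.6 and 23.1 CPM in young and 158, 107 and 108 CPM in vehicle-treated mice (5.09-fold, edgeR adjusted p = 7.09e-07). The counts of H2-Q7 and H2-Q9 were identical in all libraries, so the rise of 3.77-fold is of the pair, and H2-D1 overlaps H2-L. In the ABT-737-treated kidneys H2-Ab1 was at 1227, 1222 and 1729.9 CPM and Tap1 at 25.2, 28.2 and 37.9 CPM. The H2-Ab1 values lay between the young and the vehicle values, and Lck, the T cell kinase described next, was at 9.25, 4.45 and 6.75 CPM. All 7 class II genes and 11 of 12 class I genes were called between ABT-737 and vehicle, where 1.35% of all genes were, a comparison that shares the vehicle libraries with that to young mice and whose calls over all genes ran from 57 to 471 with 1 library left out.

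Interferon-responsive genes had 21 of 22 tested members called higher, against 7.75% of all genes (median log2 fold change 1.97). The antiviral ubiquitin-like gene Isg15 was at 10.3, 11.6, 7.61 and 9.23 CPM in young and 69.5, 60.2 and 47 CPM in vehicle-treated mice. Irf7 and Irf1, regulators of interferon genes, went from 23.2 ± 2.73 to 182 ± 74.5 CPM and from 22.2 ± 4.09 to 102 ± 33.4 CPM (SD, n = 4 and n = 3). The exception was Ifi44, at 1.72, 5.79, 4.68 and 3.23 CPM in young and 5.89, 6.84 and 4.7 CPM in vehicle-treated mice (edgeR adjusted p = 0.415). Vehicle replicate 3 was the highest of the vehicle-treated kidneys in the summed CPM of the whole list, at 2370.4 against 1552 and 1299 in replicates 4 and 5. It was also far the highest in Tgtp1 and Iigp1, genes of interferon-induced GTPases. Tgtp1 was at 0.858, 3.31, 5.27 and 2.77 CPM in young and 89.5, 9.58 and 10.3 CPM in vehicle-treated mice, and Iigp1 at 3.0, 4.41, 3.51 and 8.77 CPM (young) and 96.6, 11.6 and 10.3 CPM (vehicle). By group means the rise was 12- and 8.03-fold, and all 3 vehicle values exceeded all young ones in both genes. Without vehicle replicate 3 neither was called (edgeR adjusted p = 0.053 to 0.0534), and the log2 fold change went down for Tgtp1 (3.55, 1.60 without vehicle 3) and Iigp1 (3.12, 1.18 without vehicle 3).

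Markers of lymphocytes rose from low levels. Of 16 T cell genes, 6 passed the expression filter and all were called higher, where 7.75% of all genes were. In lists this low a gene could pass the filter through the vehicle-treated libraries alone, so the calls among the genes tested do not stand for the whole list. Their summed CPM over the whole list was 17.2, 15.2, 18.1 and 13.8 in young and 86.4, 138 and 109.9 in vehicle-treated mice. Lck, the kinase of the T cell receptor pathway, was at 4.72, 4.96, 7.03 and 2.77 CPM in young and 34.9, 36.9 and 37.6 CPM in vehicle-treated mice, 7.49-fold higher with values close together (edgeR adjusted p = 3.62e-06). Cd3d, a chain of the receptor complex, rose at least 6.62-fold over 3 counts per library, and Cd8b1 and Cd8a, the coreceptor chains of cytotoxic T cells, 11- and 4.02-fold. Cd4, the coreceptor of helper T cells, was not tested and was at 1.29, 2.2, 0 and 1.38 CPM in young and 2.36, 15.7 and 4.7 CPM in vehicle-treated mice. All 4 tested genes of 11 cytotoxic lymphocyte markers were called higher, beside the same 7.75%. Among them Ccl5, the chemokine RANTES, was at 8.58, 17.9, 21.1 and 13.4 CPM in young and 156, 359 and 271 CPM in vehicle-treated mice (17.2-fold, edgeR adjusted p = 8.16e-07). Nkg7 and Ctsw, granule genes of killer cells, rose 8.17- and 8.78-fold, and Cst7, a cystatin of killer cells, at least 6.97-fold. Gzmb, which encodes granzyme B, had 1, 1, 1 and 1 counts in young and 9, 5 and 10 counts in vehicle-treated mice and was not tested. With the genes whose young libraries had at most 3 counts each set at their bound, the medians of the T cell and cytotoxic lists were 2.77 and 3.07 on the log2 scale, in place of 2.90 and 3.59.

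The B cell list was highest in 1 kidney. Of 12 genes, 4 were tested and all 4 were called higher, where 7.75% of all genes were. As in the T cell list, a gene could pass the filter through the vehicle-treated libraries alone. These 4 calls therefore do not stand for the whole list. With no filter beyond 1 count, 7 of 11 genes tested were called higher. Its summed CPM was 8.15, 7.99, 8.78 and 12 in young and 33.8, 215 and 33.3 in vehicle-treated mice, with vehicle replicate 4 far above the other 2. The B cell receptor component Cd79b was at 5.1, 33.5 and 4.7 CPM in the vehicle-treated kidneys against 1.76 to 2.76 CPM in young ones, and the lectin gene Cd22 at 1.57, 32.8 and 2.82 against 0 to 1.85 CPM. Pou2af1, a coactivator of immunoglobulin genes, had 3, 27 and 4 counts in vehicle-treated mice and at most 1 count in a young one. Mzb1, a chaperone of antibody-secreting cells, was at 3.86, 3.58, 3.22 and 4.62 CPM in young and 18.5, 55.4 and 16.4 CPM in vehicle-treated mice, above the young range in all 3. Without vehicle replicate 4, 1 gene of the list was called higher. The call was lost for Cd22 (without vehicle 4), Cd79b (without vehicle 4, young 2, young 3 or young 4) and Pou2af1 (without vehicle 4) at edgeR adjusted p-values of 0.0512 to 0.276, and the log2 fold change moved for Cd22 (4.22, 4.83 without vehicle 3 and 1.93 without vehicle 4 and 5.34 without young 4), Cd79b (2.45, 1.05 without vehicle 4), Pou2af1 (4.75, 5.35 without vehicle 3 and 2.79 without vehicle 4) and Mzb1 (2.92, 2.21 without vehicle 4).

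All 14 tested markers of macrophages and dendritic cells, of 18 listed, were called higher, against 7.75% of all genes (median log2 fold change 2.17), and 12 to 15 were called when any library was left out. Their summed CPM was 298, 312, 285 and 367 in young and 1223, 1669 and 1005 in vehicle-treated mice. C1qa, a chain of complement C1q made by macrophages, was at 47.2, 54, 56.5 and 66.9 CPM in young and 282, 432 and 262 CPM in vehicle-treated mice (5.79-fold). C1qb rose 5.5-fold, the Fc receptor gene Fcgr1 7.45-fold and Aif1, a microglia and macrophage marker, 5.4-fold. Laptm5 and Pirb, genes of leukocyte membranes, had the smallest p-values of all genes that rose. Laptm5 was at 26.2, 31.4, 26.1 and 19.4 CPM in young and 113, 147 and 133 CPM in vehicle-treated mice (edgeR adjusted p = 5.97e-07), and Pirb rose 6.57-fold. No neutrophil marker passed the expression filter, and S100a9, a calprotectin chain, had 1, 1, 0 and 0 counts in young and 6, 8 and 7 counts in vehicle-treated mice.

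**Figure D4:**
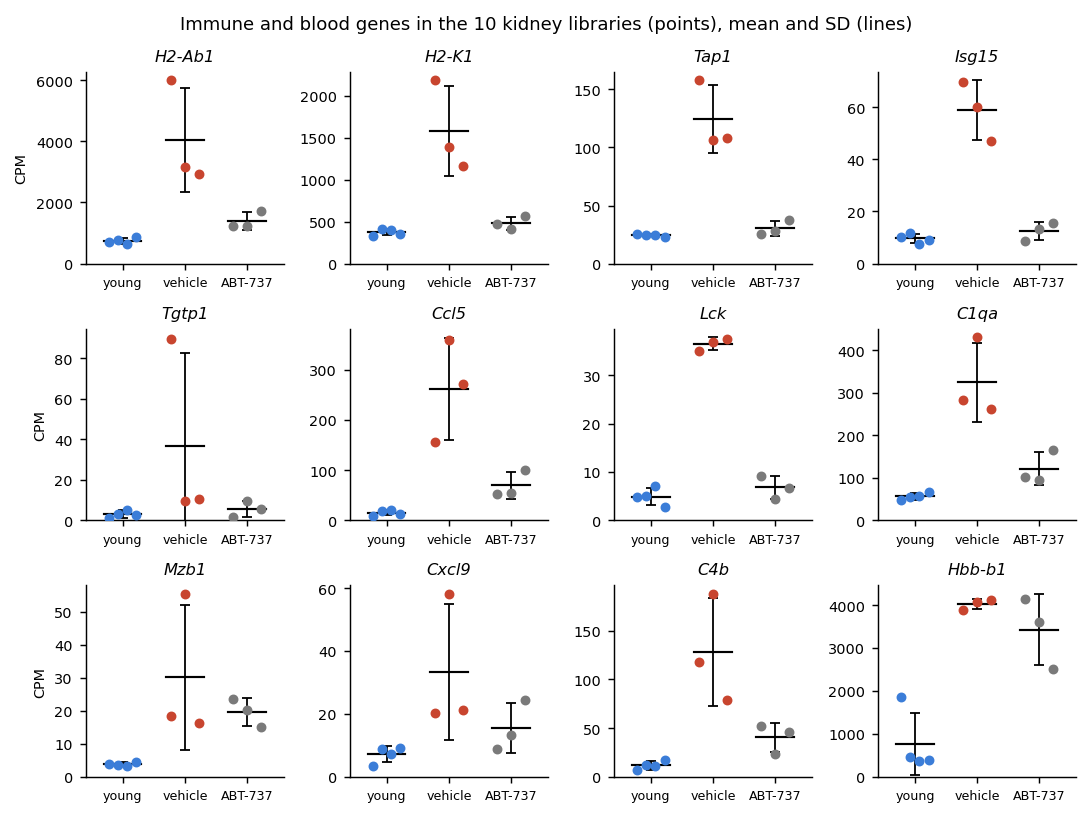
Level in CPM (y axis, from 0) of 11 immune genes and the globin gene Hbb-b1 in each of the 10 kidney libraries (points, blue for young, red for vehicle, grey for ABT-737), with the mean and SD as lines that end at 0 where they would go below it. Tgtp1 is high in 1 vehicle-treated kidney, Mzb1 in another, and Hbb-b1 is high in all 6 old kidneys and intermediate in young replicate 1.

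Blood genes were higher as well. Of 11 genes of globins, heme synthesis and platelets, 10 were tested and 9 were called higher, where 7.75% of all genes were, with a median log2 fold change of 2.40 (3.29 without young replicate 1). Their summed CPM was 8424, 2056, 1712 and 1554 in young replicates 1 to 4 and 16786, 17522 and 17492 in vehicle replicates 3 to 5, so young replicate 1 was between the groups. Hbb-b1 (beta globin) was at 1855, 455, 358 and 380.3 CPM in young and 3889, 4068 and 4118 CPM in vehicle-treated mice. The platelet genes Pf4 and Ppbp rose 3.81-fold and at least 4.43-fold. No gene of the list was at 0 in all 10 libraries. Without young replicate 1 the log2 fold change rose for Hbb-b1 (2.40, 3.34 without young 1). The beta globin genes Hbb-b2 and Hbb-bt overlap on the same strand and nearly share their counts. In the ABT-737-treated kidneys the sum was 17082, 12399 and 11236, while the MHC class II sum was 3292, 3272 and 4718 against 16389.9, 10639 and 8948 with vehicle. Whether blood left in the tissue had a part in the rise of leukocyte genes was not tested.

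Chemokines, complement and acute phase genes rose in part. Of 20 chemokine genes listed, 12 were tested and 7 were called higher, where 7.75% of all genes were. With no filter beyond 1 count, 11 of the 20 were called higher. The monocyte attractant Ccl2 was at 0.429, 1.1, 2.05 and 0.923 CPM in young and 9.03, 9.58 and 7.51 CPM in vehicle-treated mice. The interferon-gamma-induced Cxcl9 and Cxcl10, which draw T cells, rose 4.62- and 4.23-fold, and Ccl4 6.46-fold. Of 9 complement genes tested, 8 were called higher. C4b was at 6.86, 11.9, 10.8 and 17.5 CPM in young and 118, 187 and 78.9 CPM in vehicle-treated mice (10.9-fold), and C3, the hub of the cascade, at 15.4, 16, 18.4 and 23.5 CPM (young) and 63.6, 261 and 96.7 CPM (vehicle), with replicate 4 the highest in both genes. C1ra and C2, serine proteases of the cascade, rose 2.41- and 1.93-fold. Of 12 acute phase genes listed, 7 were tested and all 7 were called higher. With no filter beyond 1 count, 8 of the 12 were. Low genes could pass the expression filter through the vehicle-treated libraries alone, so calls among the tested genes do not stand for a whole list. Pigr, which carries IgA across epithelium, went from 172, 296, 185 and 112 to 937, 475 and 869.5 CPM. The fibrinogen genes Fga, Fgb and Fgg rose 3.73-, 5.55- and 3.9-fold. Without vehicle replicate 4, 5 complement and 4 acute phase genes were called, and without young replicate 2, 5 complement genes. Fgb was not called without vehicle replicate 4 (edgeR adjusted p = 0.0556), and the log2 fold change moved for C3 (2.92, 2.13 without vehicle 4), Cxcl9 (2.12, 1.5 without vehicle 4) and Fgb (2.33, 1.52 without vehicle 4).

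Of 17 tested genes of tubule injury and repair, 9 were called higher (7.75% of all genes) and 8 were not called, with a median log2 fold change of 0.87. S100a6, a calcium-binding protein that rises in damaged epithelium, was at 102, 120.2, 86.4 and 93.7 CPM in young and 187, 194 and 188 CPM in vehicle-treated mice. Anxa2, an annexin, was at 89.7 ± 13.2 CPM (SD, n = 4) and 164 ± 22.1 CPM (SD, n = 3). Both rose by 1.88- and 1.82-fold, with no overlap between the groups. Havcr1, the gene of kidney injury molecule KIM-1, was at 3.0, 3.03, 0.585 and 3.69 CPM in young and 15.7, 20.5 and 5.63 CPM in vehicle-treated mice, and Vcam1, an adhesion molecule, at 3.43, 4.13, 2.63 and 3.69 CPM (young) and 8.25, 23.3 and 10.8 CPM (vehicle). Both were low and spread widely among vehicle-treated mice.

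Nephron genes fell in some members of each tubule list and not in others. The counts that follow stand beside 5.50% of all genes called lower and 7.75% called higher. Of 19 genes of the first parts of the proximal tubule, 7 were called lower and 0 higher (median log2 fold change -0.29), and leaving out any library gave 6 to 8. Slc6a19, which takes up neutral amino acids, was at 163, 201, 189 and 173 CPM in young and 57.3, 67.7 and 85.5 CPM in vehicle-treated mice (2.59-fold lower, edgeR adjusted p = 3.47e-05). It overlaps Slc6a19os on the other strand. The lactate transporter Slc5a12 was at 95.6, 105, 128 and 99.7 CPM (young) and 43.6, 49.3 and 45.5 CPM (vehicle). Gatm, which makes the precursor of creatine, fell 1.73-fold and Slc4a4, the exit path of bicarbonate, 1.7-fold. The glucose transporter gene Slc2a2, the phosphate transporter gene Slc34a3 and Lrp2, the endocytic receptor megalin, also fell, 1.76-, 1.54- and 1.8-fold. In the last part of the proximal tubule, 5 of 9 genes were called lower. Slc22a7, a transporter of organic anions, was at 192, 218, 145 and 177 CPM in young and 58.9, 36.3 and 31.9 CPM in vehicle-treated mice. Slc5a8, Cyp7b1, Slc7a13 and Cndp1 fell 2.56-, 3.02-, 1.87- and 1.76-fold. Slc6a18, a glycine transporter, was higher at 459.9 ± 78.9 against 309 ± 32.7 CPM. Without vehicle replicate 4, without vehicle replicate 5 or without young replicate 4, 3 genes of this last list were called lower. Across both lists the call was lost for Slc34a3 (without vehicle 5), Slc7a13 (without vehicle 4, vehicle 5 or young 4), Cndp1 (without vehicle 4, vehicle 5, young 2, young 3 or young 4) and Slc6a18 (without vehicle 5 or young 3), at edgeR adjusted p-values of 0.0523 to 0.14.

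Further along the nephron, Calb1 and S100g, calcium buffers of the distal convoluted tubule, were called lower. Calb1, which encodes calbindin-D28k, was at 142, 160.4, 155 and 198 CPM in young and 34.2, 30.8 and 30.5 CPM in vehicle-treated mice. The vehicle values lay close together and 5.15-fold lower (edgeR adjusted p = 4.63e-05), and the ABT-737 values were 28.8, 77.7 and 28.6 CPM. S100g, calbindin-D9k, went from 1503 ± 171 to 909 ± 193 CPM and overlaps Bc1 and Ctps2. Slc12a3, the thiazide-sensitive sodium chloride transporter of the same segment, was higher, at 522, 424, 523 and 446 CPM in young and 593, 856 and 672 CPM in vehicle-treated mice. In the thick ascending limb, Egf (epidermal growth factor) fell from 556 ± 53.8 to 327 ± 38.6 CPM and Cldn10, a paracellular sodium channel, from 451 ± 64.4 to 281 ± 54.1 CPM, while Umod did not pass. Of the 8 distal tubule genes tested, 2 were called lower and 1 higher, and of the 9 of the thick ascending limb 2 were called lower. Single libraries decided the calls of S100g (without vehicle 3, vehicle 5, young 1, young 2 or young 4), Slc12a3 (without vehicle 4, young 2 or young 4) and Cldn10 (without vehicle 4 or vehicle 5), at edgeR adjusted p-values of 0.0514 to 0.126.

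Of 10 genes of collecting duct principal cells, 5 were called lower and 1 higher. Aqp3, a water channel, went from 40.3, 49.6, 43 and 47.5 to 17.7, 17.8 and 34.3 CPM and Hsd11b2, which inactivates corticosterone, from 356 ± 41.1 to 209 ± 31.6 CPM. Kcnj10, Scnn1b and Fxyd4, genes of ion transport, fell 1.61-, 1.54- and 1.47-fold, and Aqp4, another water channel, rose 1.95-fold. Aqp2, the vasopressin-regulated water channel, was at 536, 513, 535 and 537 CPM in young and 336, 205 and 527 CPM in vehicle-treated mice and did not pass. Without vehicle replicates 4 or 5, or without any young replicate, 3 genes of this list were called lower. Of 10 intercalated cell genes, 5 were called lower. Slc26a4, the chloride-bicarbonate exchanger pendrin, was at 78.5, 59.8, 66.2 and 73.4 CPM in young and 25.9, 27.4 and 27.2 CPM in vehicle-treated mice. The proton pump subunits Atp6v0d2 and Atp6v1b1 fell 2.61- and 1.75-fold, Slc4a9 1.61-fold, and Foxi1, the factor that specifies these cells, 1.73-fold. Leaving out a single library undid the call of Aqp4 (without vehicle 4, vehicle 5, young 1, young 2 or young 4), Scnn1b (without vehicle 3, vehicle 4, vehicle 5, young 1, young 2, young 3 or young 4), Fxyd4 (without vehicle 4, vehicle 5, young 1, young 2, young 3, young 4 or ABT-737 5) and Foxi1 (without vehicle 3, vehicle 4 or young 1), at edgeR adjusted p-values of 0.0501 to 0.219.

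**Figure D5:**
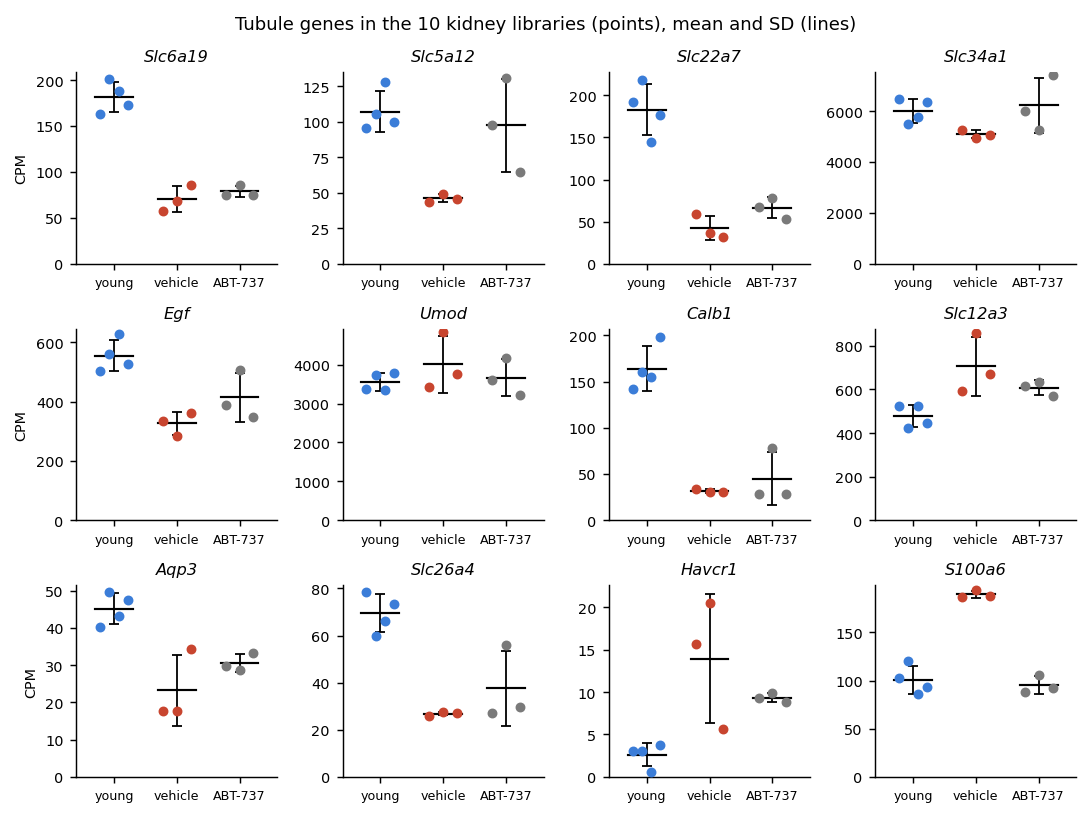
Level in CPM (y axis, from 0) of 10 nephron segment genes and of the injury genes Havcr1 and S100a6 in each of the 10 kidney libraries (points, blue for young, red for vehicle, grey for ABT-737), with the mean and SD as lines that end at 0 where they would go below it. Slc6a19, Slc22a7, Calb1 and Slc26a4 lie lower in all 3 vehicle-treated kidneys than in the 4 young ones, while Umod overlaps.

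Genes of the glomerulus, vessels and matrix are set beside the 7.75% of all genes called higher and 5.50% called lower. Of 10 podocyte genes, only Cdkn1c, a cell cycle inhibitor kept on in podocytes, was called (22.3 ± 4.26 to 36.8 ± 8.27 CPM). Of 12 endothelial genes, Eng, Flt1 and Tie1, receptors of vessel growth, were called higher (1.73-, 1.68- and 1.55-fold), and 1 was called without vehicle replicate 5. Of 20 collagen and matrix genes, only Bgn, the proteoglycan biglycan, was called (195, 180.3, 196 and 198 to 294, 480.2 and 336 CPM). Col1a1 was at 48.5, 43.5, 33.1 and 56.3 CPM (young) and 42, 73.2 and 25.4 CPM (vehicle) and Col3a1 at 17.6, 15.4, 22 and 26.3 CPM (young) and 7.46, 21.2 and 6.1 CPM (vehicle), with overlap in both. Tagln, a smooth muscle gene, was the only call among 10 stromal genes (1.62-fold higher) and overlaps Pcsk7 on the other strand. Single libraries decided the calls of Cdkn1c (without vehicle 3, vehicle 4, young 1, young 3 or young 4), Flt1 (without vehicle 5), Tie1 (without vehicle 4, vehicle 5, young 2, young 3 or young 4) and Tagln (without vehicle 4, vehicle 5, young 1, young 2, young 3 or young 4) at edgeR adjusted p-values of 0.0537 to 0.178. Of the matrix list, 3 genes were called higher without vehicle replicate 3, 2 without vehicle replicate 5, and 1 lower without vehicle replicate 4, and of the stromal list 2 without vehicle replicate 3.

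Of 20 tested genes of fatty acid oxidation and PPARα, 5 were called higher and 2 lower, where 7.75% and 5.50% of all genes were. Cyp4a14, a fatty acid hydroxylase, was at 5.15, 9.65, 14.1 and 6.92 CPM (young) and 8.64, 49.9 and 106 CPM (vehicle), and Angptl4, an inhibitor of lipoprotein lipase, at 100.4, 78.8, 112 and 67.4 CPM (young) and 187, 544 and 148 CPM (vehicle). In both genes the vehicle-treated mice differed widely from each other. The thioesterase genes Acot1 and Acot2 rose 2.08- and 2.18-fold. The oxidation enzymes Acadm and Decr1 fell 1.74- and 1.54-fold. Without vehicle replicate 4, 2 genes of the list were called higher and 0 lower, and without vehicle replicate 5, 3 higher and 1 lower. Without young replicates 2, 3 or 4, 1 was called lower. The log2 fold change moved for Angptl4 (1.69, 0.90 without vehicle 4) and Cyp4a14 (2.54, 1.55 without vehicle 5). Leaving out a single library undid the call of Angptl4 (without vehicle 4), Cyp4a14 (without vehicle 5), Acot1 (without vehicle 5), Acot2 (without vehicle 4, young 1, young 2 or young 4), Acadm (without vehicle 4) and Decr1 (without vehicle 4, vehicle 5, young 2, young 3 or young 4) at edgeR adjusted p-values of 0.0512 to 0.164. Of 15 cholesterol synthesis genes, Cyp51, Hmgcs1 and Nsdhl were called lower and 0 higher, beside the same shares. Cyp51 was at 154, 213, 202 and 190.2 CPM in young and 99.7, 78.7 and 85.5 CPM in vehicle-treated mice, and Hmgcs1 and Nsdhl fell 1.5- and 1.78-fold. Without vehicle replicate 5, 1 gene of this list was called lower, and the call was lost for Hmgcs1 (without vehicle 5) and Nsdhl (without vehicle 4, vehicle 5, young 2, young 3 or young 4) at edgeR adjusted p-values of 0.0547 to 0.151. Without vehicle replicate 3 or young replicate 1, 1 gene was called higher.

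The list of gluconeogenesis, vitamin D and phosphate hormone genes had 9 members tested. Of these, 2 were called higher and 1 lower, where 7.75% and 5.50% of all genes were, and 6 were not called. With 1 library left out, 2 to 3 were called higher and 0 to 2 lower. Cyp27b1, which makes active vitamin D, was at 2.57, 3.86, 2.05 and 2.77 CPM in young and 6.28, 26.7 and 23 CPM in vehicle-treated mice. Kl (klotho), the coreceptor of the phosphate hormone FGF23, was lower, at 282, 331, 352 and 408 CPM in young and 243, 231 and 216 CPM in vehicle-treated mice. G6pc, the last enzyme of glucose release, was higher at 364 ± 44.9 against 194 ± 33 CPM. Of 16 antioxidant genes tested, a list whose calls were near the 7.75% (higher) and 5.50% (lower) of all genes, Gclc, which limits glutathione synthesis, was called lower (317, 342, 261 and 326 to 170.4, 125 and 177 CPM) and Srxn1 and Txnrd1 higher (1.47- and 1.46-fold). Of 12 male-biased kidney genes, Acsm3, Odc1 and Slc7a13 were called lower, where 5.50% of all genes were. Acsm3, which overlaps Eri2 on the other strand, was at 225, 238, 222 and 368 CPM in young and 123, 34.2 and 31.9 CPM in vehicle-treated mice. Between 1 and 7 genes of that list were called when a library was left out, with 7 without vehicle replicate 3, 1 without vehicle replicate 4, vehicle replicate 5 or young replicate 4, and 5 without ABT-737 replicate 3 or ABT-737 replicate 4. Of 6 female-biased genes, 3 were tested and 1 was called higher (Cyp4a14, above). The call was lost for Kl (without vehicle 4, vehicle 5 or young 4), Srxn1 (without vehicle 5, young 2 or young 3), Txnrd1 (without vehicle 3, vehicle 5, young 1, young 3 or young 4), Odc1 (without vehicle 4, vehicle 5, young 1, young 2 or young 4) and Slc7a13 (without vehicle 4, vehicle 5 or young 4) at edgeR adjusted p-values of 0.0625 to 0.176, and the log2 fold change moved for Acsm3 (-2.02, -3.0 without vehicle 3).

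Of 9 tested genes linked to cell senescence, Cdkn1a, Gdf15 and Il1b were called higher, where 7.75% of all genes were. Gdf15, a stress-induced cytokine, was at 19.3, 16.3, 16.1 and 21.2 CPM in young and 62, 67.7 and 38 CPM in vehicle-treated mice, and Il1b, an inflammatory cytokine, at 1.72, 0.551, 1.76 and 1.85 CPM (young) and 7.85, 5.47 and 11.3 CPM (vehicle). Cdkn2a, which encodes p16 and p19, had 0, 0, 1 and 1 counts in young and 2, 3 and 2 counts in vehicle-treated mice and was not tested. Of 22 proliferation genes listed, 10 were tested. Only Mcm6, a replication helicase gene, was called (1.59-fold higher), near the share of all genes. The median log2 fold change of the tested genes was 0.83, with 8 higher and 2 lower. At an unadjusted edgeR p under 0.05 there were 6 of the 10, beside 3120 of all 11123 genes. Without ABT-737 replicate 3, ABT-737 replicate 4 or vehicle replicate 5, 2 genes of this list were called higher. Leaving out a single library undid the call of Mcm6 (without vehicle 3, vehicle 4, vehicle 5, young 1, young 2 or young 3), at edgeR adjusted p-values of 0.0514 to 0.107.

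The largest rises by the naming rule, which asks for a call, groups that do not overlap and at least 5 CPM in the higher group, are described next. Mir124-2hg, the host transcript of a microRNA, had 0, 0, 0 and 1 counts in young and 26, 9 and 5 counts in vehicle-treated mice. Apol11b, of the apolipoprotein L family, rose at least 6.99-fold, and Ubd, the ubiquitin-like FAT10, at least 24.1-fold to 43.6, 24.6 and 10.8 CPM. Slpi, a secreted inhibitor of neutrophil proteases, was at 2.57, 3.03, 4.68 and 4.15 CPM in young and 19.6, 279.8 and 48.8 CPM in vehicle-treated mice, with replicate 4 more than 5 times the next. Lax1 (a lymphocyte adaptor), Ccl8 and Cyp4f18 (a myeloid fatty acid hydroxylase) rose 13.7-, 12.9- and 14.3-fold, and Il2rb, the interleukin 2 receptor beta chain, at least 8.94-fold. Cst7, Ccl5, Pou2af1 and Tgtp1, described above, completed the 12. The log2 fold change moved for Mir124-2hg (5.53, 4.83 without vehicle 3 and 6.94 without young 4), Ubd (5.0, 4.35 without vehicle 3), Slpi (4.92, 3.20 without vehicle 4), Ccl8 (3.73, 2.75 without vehicle 4 and 4.40 without young 4) and Cst7 (4.24, 4.84 without young 4).

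The largest falls included the 3 clock genes Ciart, Dbp and Nr1d1 together with Calb1. Akr1c18, a hydroxysteroid dehydrogenase that inactivates progesterone, was at 22.7, 24, 16.7 and 25.8 CPM in young and 2.36, 0.684 and 2.35 CPM in vehicle-treated mice, 12.4-fold lower and far outside the young range. Malrd1 fell 8.09-fold, Mfsd2a, which carries lysophospholipids, 5.39-fold, and Igfbp6, which binds insulin-like growth factors, 5.11-fold. Cd55, which protects cells from complement, fell 5.67-fold and was at 1.57, 0 and 1.41 CPM in vehicle-treated mice. Zfp655, Coq10b (a coenzyme Q binding protein) and Tbx10 (a T-box factor) fell 4.82-, 4.7- and 4.95-fold. Rnf24, a ring finger gene that overlaps Pank2 on the other strand, had one of the 5 smallest p-values among falls, at 73.8, 88.5, 85.8 and 135 CPM in young and 25.9, 21.9 and 16.4 CPM in vehicle-treated mice. In the ABT-737-treated kidneys Akr1c18 was at 3.6, 4.45 and 2.6 CPM and Rnf24 at 24.7, 26.2 and 27 CPM. A single library could undo the call of Cd55 (without vehicle 4, vehicle 5 or young 1) at edgeR adjusted p-values of 0.0504 to 0.0828, and the log2 fold change moved for Igfbp6 (-2.29, -3.20 without vehicle 3 and -1.70 without vehicle 5).

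For genes outside the clock lists, the kidney was again set beside the other tissues. The share of genes called between vehicle and young was 22.6% of 5583 for liver, 12.9% of 11949 for lung and, in the other table, 11.2% of 14224 for skin. MHC class II genes were called higher in 6 of 6 tested for liver, 5 of 9 for lung and 7 of 7 in skin. The rise of H2-Ab1, 2.44 on the log2 scale in kidney, was larger than in lung (0.77, difference 1.66 ± 0.5 SE, edgeR adjusted p = 0.0359), and that in liver was 2.55. C4b rose more in kidney than in both liver and lung (3.44 against 1.08 and 1.59, edgeR adjusted p = 0.00393 and 0.0114). Cxcl9 and Cxcl10 rose less than in lung, where their log2 fold changes were 7.68 and 6.43 (edgeR adjusted p = 0.00292 and 0.0157). Lcn2 and Cdkn1a rose less than in liver (2.67 against 7.49 and 2.04 against 5.86, edgeR adjusted p = 0.0281 and 0.0154). Cyp4a14 rose in kidney and was not called in liver (2.54 against -1.91), and the difference passed (edgeR adjusted p = 0.0325). Mfsd2a fell in kidney and rose in lung (-2.35 against 1.61, edgeR adjusted p = 5.48e-04).

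Markers of other organs are given beside the 13.3% of all genes called. Of 11 hepatocyte genes, 5 were tested. Ttr (transthyretin) was called lower, at 338, 281, 234 and 473 CPM in young and 106, 99.2 and 111 CPM in vehicle-treated mice, and Fgb higher. Of 17 pancreas genes, 4 were tested and 0 called, and Cela1 was at 298 ± 25.2 and 256 ± 60.5 CPM. Of 9 adipocyte genes tested, Car3 was lower and Lipe, which releases fatty acids and overlaps 4732471J01Rik on the other strand, higher (2.3-fold). The calls undone by single libraries were Fgb (without vehicle 4) and Car3 (without vehicle 4 or vehicle 5) at edgeR adjusted p-values of 0.0539 to 0.0634. Of the adrenal list, Akr1b7 was the only gene tested and was lower (3.16-fold), while the steroid enzymes Cyp11b1 and Cyp11b2 and their regulator Nr5a1 were at 0 in all 10 libraries. Of 11 skeletal muscle genes 1 was tested and it was not called, and no lung epithelium gene passed the filter.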

How the data were processed

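Polyadenylated RNA of kidney, liver, lung and skin was sequenced at 3′ ends by the authors, aligned with HISAT 0.1.5 and counted per gene with HOMER on mm10, per the submitters' processing notes. The deposited values are raw counts per gene, with skin in a table apart from the other tissues. Reads carried molecule barcodes, but whether these were collapsed and whether counting used the strand are not given in the sources used here. Each kidney library held 1431814 to 3513311 counts, and the biological coefficient of variation was 16.5%, so low genes are the least precise.

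From these counts, the 10 kidney libraries were fitted together in edgeR 4.0.16 (R 4.3.3) with TMM normalization, its default expression filter (11123 of 24537 genes kept) and the quasi-likelihood test of vehicle minus young, with Benjamini-Hochberg adjustment at 0.05. A fit over the 30 kidney, liver and lung libraries tested the difference between tissues, and skin had its own fit. The fitting was tested on simulated data. No library was a copy of another. The study counts the samples of a group as mice, so p-values measure the spread between these mice. Among all genes, 47 in 17 sets had identical counts. Promoters came from the RefSeq table of GRCm38.p6.

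The members and gene lists were chosen with earlier results of these data known. A few genes are not reported here and were left out of the lists. Named genes were the clock genes and Prf1, the 12 largest rises and falls among called genes with groups apart and a mean of at least 5 CPM, the 5 smallest p-values per direction, and up to 4 called members per list, plus members needed to show that a list did not move together. Further named genes, such as Sgk1, Slc34a3, Cndp1, Foxi1, Fxyd4, Acot2 and Iigp1, were chosen after their values were seen. DESeq2 1.42.0, other normalization, filters, samples, a fold threshold and a replicate block were tried as alternatives.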

Additional observations from a re-analysis of the deposited data

Results flagged for a closer look

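In the group of 4 young kidneys, 19 of 230 values tested had 1 kidney far from the other 3. The measure was the gap to the nearest other kidney as a share of the whole range, set against Dixon's 95% critical value. Chance flags about 1 in 20 groups, and groups of 3 were not tested. Young replicate 1 was the highest in Hbb-b1 (0.935, 1855 CPM against 358 to 455), Hbb-b2 (0.947, 660.4 CPM against 134 to 162), Hbb-bt (0.947, 658 CPM against 134 to 162), Pf4 (0.901, 8.15 CPM against 3.69 to 4.13) and the summed blood list (0.927, 8424 CPM against 1554 to 2056). Young replicate 1 was the lowest in the summed interferon list (0.833, 347 CPM against 441 to 459.7). Young replicate 2 was the highest in Cyp4f18 (0.899, 3.03 CPM against 1.29 to 1.46) and H2-D1 (0.955, 522 CPM against 434 to 438). Young replicate 2 was the lowest in Aqp2 (0.911, 513 CPM against 535 to 537), Hspa1b (0.838, 47.7 CPM against 62.4 to 65.2) and Il1b (0.899, 0.551 CPM against 1.72 to 1.85). Young replicate 3 was the highest in Per1 (0.861, 58.8 CPM against 34.5 to 37.9) and the summed adrenal list (0.857, 13.5 CPM against 10.6 to 11). Young replicate 3 was the lowest in Il2rb (0.847, 0.293 CPM against 0.827 to 0.923). Young replicate 4 was the highest in Acsm3 (0.893, 368 CPM against 222 to 238), Lax1 (0.834, 1.85 CPM against 0.293 to 0.551) and Mir124-2hg (1.0, 0.462 CPM against 0 to 0). Young replicate 4 was the lowest in Akr1b7 (0.830, 6.92 CPM against 9.92 to 10.5) and Scnn1b (0.939, 36.9 CPM against 42.9 to 43.3).

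The change between vehicle and young mice was tested against that in another tissue, and for 37 changes of named genes the difference passed (edgeR adjusted p under 0.05). The differences are on the log2 scale, kidney minus the other tissue. Against lung they were above 0 for Anxa2 (1.68), Bgn (1.26), C3 (2.21), C4b (1.82), Cry1 (1.99), Cry2 (1.59), Cyp4f18 (2.77), Dbp (1.06), Eng (1.55), H2-Ab1 (1.66), H2-D1 (1.22), H2-Eb1 (1.53), Hlf (2.12), Irf1 (1.44), Nr1d1 (2.65), Nr4a1 (1.84), S100a6 (1.73), Tagln (1.76), Tie1 (2.09) and Tspan4 (1.53). They were below 0 against lung for Atp6v0d2 (-2.03), Cd55 (-2.90), Coq10b (-1.79), Cxcl10 (-4.36), Cxcl9 (-5.57), Gatm (-2.73), Gclc (-1.13), Mfsd2a (-3.98), Odc1 (-1.59), Slc26a4 (-3.18) and Zfp655 (-3.35). Against liver the difference was above 0 for C4b (2.33), Cyp4a14 (4.48), Iigp1 (3.91) and Pigr (1.71), and below 0 for Cdkn1a (-3.86) and Lcn2 (-4.95).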

How the results depend on the processing

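Over all alternatives, no gene called and named here changed direction, and 2165 of 2373 repeated calls passed again. Many of these genes were named for their p-value or fold change in the same counts. The 2373 leave out genes that an alternative did not test. Of 152 genes, 103 were compared with at least 10 counts required in every library, and 146 with only the compared groups fitted. The losses were uneven. Of the 152 genes called and named, 85 passed with a replicate block, 120 without vehicle replicate 4 and 123 without vehicle replicate 5. With at least 10 counts required in every library, 574 genes were higher, 4 E-box and D-box genes were called and 0 RORE genes, since fewer genes were tested, and 21 and 275 genes differed from liver and lung. With an absolute log2 fold change over 1 required, 522 genes were higher, 186 lower and 5 E-box and D-box genes called. With no filter beyond 1 count, 368 genes were called between ABT-737 and vehicle and 155 differed from liver. With only the compared groups fitted, 69 genes were called between ABT-737 and vehicle, and 278 and 1668 differed from liver and lung. DESeq2 gave 232 genes for liver. Leaving out 1 library gave 587 to 1033 genes higher, 255 to 852 lower, 4 to 9 E-box and D-box genes, 4 RORE genes, 57 to 471 genes between ABT-737 and vehicle, 54 to 146 against liver and 321 to 1933 against lung. Changes of genes that were not called turned sign with a library left out, as for Btrc (-0.30 to 0.15), Col1a1 (-0.41 to 0.33), Per1 (-0.61 to 0.048) and Tspan4 (-0.17 to 0.10). The cause of these shifts was not tested, except where the alternative itself had fewer genes or samples.

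Replicates 3 and 4 occur in both groups. The deviations of same-numbered samples from their group means correlated with r = -0.062 for number 3 and -0.018 for number 4. So few pairs cannot show whether same-numbered samples share more than a number. With a replicate block, 272 genes were higher, 97 lower, 3 E-box and D-box genes called, and 59 genes called between ABT-737 and vehicle. Vehicle replicate 4 was the shallowest kidney library, at 1431814 counts.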
